A study of Mus musculus with 4 samples.

Results

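The inhibitory receptors of T cells are described here through 9 genes, chosen by name from the 32285 genes of the files: the receptors Pdcd1, Ctla4, Lag3, Havcr2, Tigit, Cd160 and Cd244a, the ectoenzyme Entpd1 and the transcription factor Tox. All 9 genes were found. They were measured by single-cell RNA sequencing (scRNA-seq) of tumors that MC38 cells, a colon adenocarcinoma line of the mouse, formed under the skin of C57BL/6 mice. RAC1, a small GTPase, was wild type (WT) in the tumor cells or carried the homozygous RAC1 A159V substitution made by CRISPR at the endogenous gene, of which the study used 1 clone unless stated otherwise. Mice received an antibody against PD1 (anti-PD1) or IgG as a control. Genotype below refers to the tumor cells. Crossing genotype and antibody gave 4 groups with 1 library each (WT IgG, WT anti-PD1 and their A159V counterparts), and no difference between groups has a replicate check. Immune (CD45+) and other (CD45-) cells had been split on beads and recombined before loading, so the share of immune cells was set in part by hand.

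Inhibitory receptors are surface proteins that T cells raise after activation and that dampen signaling from the T cell receptor and from CD28. They are kept high in cells that meet antigen for a long time, a state called exhaustion, in which Tox is the factor that sets much of the program. Regulatory T cells carry CTLA4 and TIGIT as part of their suppressive function. CD160 and CD244 are shared with natural killer (NK) cells.

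The 4 libraries held 54402632 to 125227747 unique molecular identifiers (UMIs), and 29184 cells were analyzed, of which 5752 were lymphoid. Lymphoid classes were named from RNA markers alone and end in "-like" for that reason. In the order WT IgG, then WT anti-PD1, then A159V IgG and last A159V anti-PD1, there were 288, 523, 199 and 362 CD8 T-like cells, 126, 104, 70 and 97 conventional CD4 T-like cells, 226, 267, 170 and 235 Treg-like cells, and 220, 458, 456 and 354 NK-like cells. A gamma-delta T-like class is given for comparison only, since Trac, the alpha chain gene that such cells should lack, was detected in 47.2% and 52.8% of the cells of its main clusters. The WT anti-PD1 library stood apart. Its classes held 196 to 284 CPM (the share of a summed profile, scaled per 1e+06 UMIs) of Col1a1, a stromal transcript, against 8.34 to 38.1 CPM in the other libraries, and Isg15 was at 70.8 CPM in its CD8 T-like cells against 345 to 465 CPM elsewhere. Its conventional CD4 T-like class held more Cd8a (120 CPM) and Cd8b1 (193 CPM) together than Cd4 (200.02 CPM), which goes against its name. Each pair of libraries shared 13 to 22 cell barcodes. Unless stated otherwise, 4 values in a row follow this order.

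RefSeq promoter sequences (GRCm38.p6, 250 bases before to 50 after the start) were on hand for 7 of the 9 genes. Those of Pdcd1, Ctla4 and Havcr2 are shown because Pdcd1 encodes the receptor the antibody binds, Ctla4 was highest in Treg-like cells and Havcr2 had the largest rise between libraries in CD8 T-like cells. Capitals mark matches on either strand to the NFAT core GGAAA, the AP-1 motif TGANTCA, the RUNX motif TGTGGT, the TCF and LEF motif CTTTGA or the NR4A motif AAAGGTCA, which can overlap.
Pdcd1, chr1:94052504-94052803, minus strand: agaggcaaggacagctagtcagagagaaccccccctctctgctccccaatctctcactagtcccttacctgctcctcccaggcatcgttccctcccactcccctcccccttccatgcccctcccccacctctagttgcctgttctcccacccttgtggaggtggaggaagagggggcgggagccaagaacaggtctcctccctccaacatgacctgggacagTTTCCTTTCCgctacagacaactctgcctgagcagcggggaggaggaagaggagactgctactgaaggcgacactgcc
Ctla4, chr1:60908775-60909074, plus strand: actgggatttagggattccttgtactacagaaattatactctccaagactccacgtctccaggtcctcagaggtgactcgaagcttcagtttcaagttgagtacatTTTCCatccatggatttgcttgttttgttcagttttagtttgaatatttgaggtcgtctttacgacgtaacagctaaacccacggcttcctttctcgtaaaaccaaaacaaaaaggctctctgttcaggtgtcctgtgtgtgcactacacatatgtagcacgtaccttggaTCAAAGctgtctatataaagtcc
Havcr2, chr11:46454681-46454980, plus strand: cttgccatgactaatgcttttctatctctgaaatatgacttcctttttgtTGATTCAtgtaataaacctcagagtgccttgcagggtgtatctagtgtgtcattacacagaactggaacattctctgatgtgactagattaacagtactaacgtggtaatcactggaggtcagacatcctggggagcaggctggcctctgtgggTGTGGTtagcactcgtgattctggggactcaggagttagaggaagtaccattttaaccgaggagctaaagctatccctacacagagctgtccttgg
The Pdcd1 window held 2 NFAT cores, that of Ctla4 held 1 NFAT core and 1 TCF and LEF match, and that of Havcr2 held 1 AP-1 and 1 RUNX match. Of 32851 promoters of this length, 61.3% held the NFAT core, 7.81% AP-1, 16.8% RUNX, 16.0% TCF and LEF and 1.51% NR4A. These matches are letters in a window and were not tested against the levels.

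The first question was which lymphoid class carried each gene. Across the 4 libraries, Pdcd1 was highest in CD8 T-like cells, Ctla4 and Tigit in Treg-like cells, and Cd244a in NK-like cells. Lag3, Havcr2, Entpd1 and Tox were high in both CD8 T-like and Treg-like cells. Class pairs were compared by edgeR's quasi-likelihood test with library as a block and Benjamini-Hochberg adjustment over 8428 genes. In it, 7 members were higher in CD8 T-like than in conventional CD4 T-like cells, where 14.6% of all genes were called. Among these members, Tox passed in only 5 of 14 alternative settings, and Lag3 and Entpd1 in 13 each, with log2 values down to 0.58 and 0.29. The conventional CD4 T-like class was cluster 6 alone, since a cycling cluster and a cluster led by Il5 and Il13 were left unnamed. Cd160 and Cd244a had 1 UMI each in all conventional CD4 T-like cells. Treg-like cells were higher than conventional CD4 T-like cells for 6 members (18.1% of all genes called), although a gate on marker UMIs in place of clusters left 1. With that gate only 204 of 8928 genes were called in this pair, against 1526 of 8428 with clusters. Between CD8 T-like and Treg-like cells, 3 members were higher and 2 lower (26.6% called). Against NK-like cells, CD8 T-like cells were higher for 6 members and lower for 1 (26.2% called), Treg-like cells were higher for 7 and lower for 2 (45.8% called), and conventional CD4 T-like cells were higher for 3 and lower for 3 (34.4% called). The libraries differ in treatment and genotype, so these tests ask whether a class difference held across them. Without WT anti-PD1 the counts of members called were 7, 6, 5, 8, 9 and 7 in the order given here. Of the 7772 genes then tested, 1211, 1291, 2039, 2363, 3759 and 2865 were called in the same order.

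**Figure D1:**
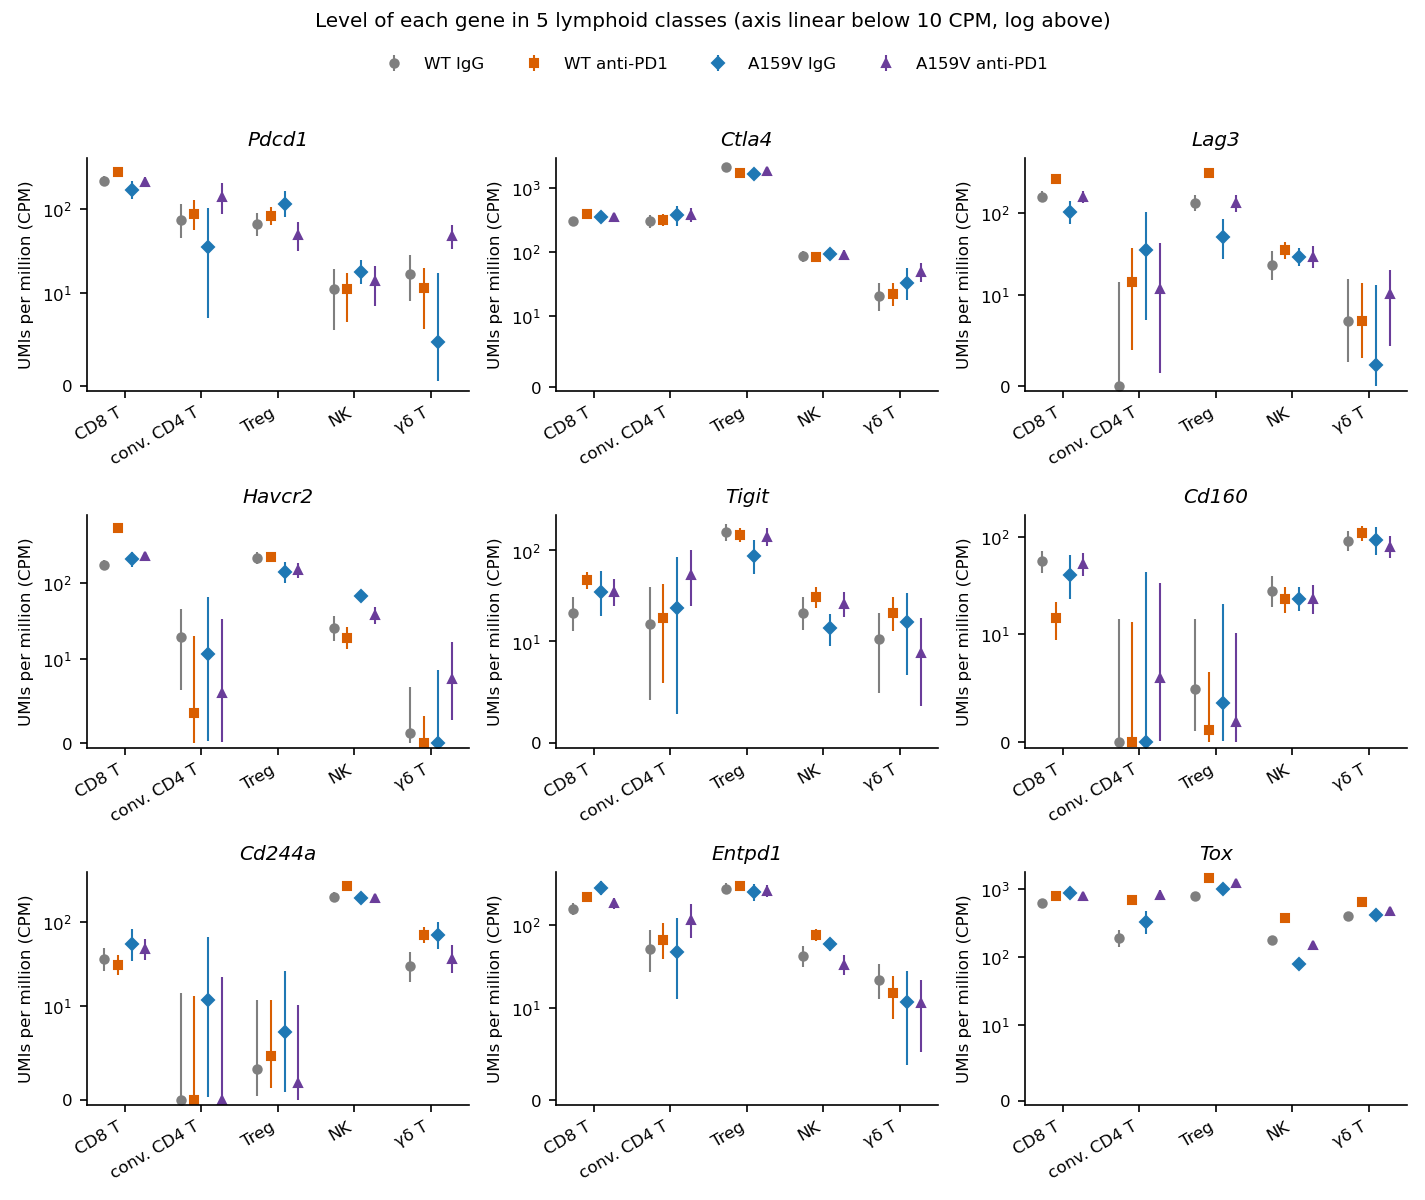
Level of each of the 9 genes in CD8 T-like, conventional CD4 T-like, Treg-like, NK-like and gamma-delta T-like cells, in CPM on an axis that is linear below 10 and logarithmic above. Each point is 1 library with its 95% Poisson interval, which covers counting error only. Ctla4 was at 1641 to 2142 CPM in Treg-like cells and at 305 to 398 CPM in CD8 T-like cells.

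Pdcd1 encodes PD1, the receptor the antibody binds (chromosome 1, 94038305 to 94052553, minus strand, GRCm38). It was at 219, 278, 170 and 212 CPM in CD8 T-like cells. Treg-like cells held 65.8, 83.0, 116 and 48.4 CPM, conventional CD4 T-like cells 74.0, 87.3, 35.2 and 137 CPM, and NK-like cells 11.2, 11.2, 17.9 and 13.7 CPM. Each CD8 T-like value lay above all values of the other 3 classes. The log2 fold change of CD8 T-like over Treg-like cells was 1.61 (SE 0.22, edgeR adjusted p = 3.26e-06), and over NK-like cells it was 3.96 (SE 0.24, edgeR adjusted p = 2.83e-12). Treg-like and conventional CD4 T-like cells were not called apart (log2 -0.17, SE 0.30, edgeR adjusted p = 0.776). In the tumor-like cells of 3 libraries Pdcd1 was at 0.187 to 0.234 CPM. The WT anti-PD1 library had too few of these cells for a value.

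Ctla4 encodes the receptor that competes with CD28 for CD80 and CD86 (chromosome 1, 60887000 to 60915832, plus strand). Treg-like cells held 2142, 1724, 1641 and 1865 CPM. CD8 T-like cells held 305, 398, 358 and 355 CPM and conventional CD4 T-like cells 300, 313, 376 and 382 CPM. The lowest Treg-like library was thus above the highest of the other classes, and the CD8 T-like and conventional CD4 T-like ranges overlapped. Treg-like cells were higher than conventional CD4 T-like cells by 2.51 on the log2 scale (SE 0.14, edgeR adjusted p = 1.72e-11) and than NK-like cells by 4.29 (SE 0.14, edgeR adjusted p = 4.05e-17). CD8 T-like and conventional CD4 T-like cells were not called apart (log2 0.17, SE 0.15, edgeR adjusted p = 0.487).

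Tigit, which binds CD155 and CD112 on other cells, followed the same order at lower levels (chromosome 16, 43648867 to 43664146, minus strand). It was at 158, 150, 86.9 and 141 CPM in Treg-like cells, against 20.5, 46.8, 35.0 and 34.8 CPM in CD8 T-like cells and 20.7, 30.8, 14.1 and 25.6 CPM in NK-like cells. Treg-like cells lay above the other classes in every library. CD8 T-like cells were lower than Treg-like cells by a log2 of -1.99 (SE 0.21, edgeR adjusted p = 9.67e-08). CD8 T-like, conventional CD4 T-like and NK-like cells were not called apart for Tigit (the lowest edgeR adjusted p was 0.119).

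Lag3 encodes a receptor for MHC class II (chromosome 6, 124904361 to 124911705, minus strand). It was at 158, 255, 103 and 157 CPM in CD8 T-like cells and at 133, 304, 50.7 and 132 CPM in Treg-like cells. The WT anti-PD1 library was the highest and A159V IgG the lowest in both classes. With library as a block, the classes were not called apart (log2 0.15, SE 0.23, edgeR adjusted p = 0.686). NK-like cells held 23.3, 35.1, 29.2 and 29.3 CPM. Conventional CD4 T-like cells had 0, 4, 3 and 2 Lag3 UMIs in all.

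Havcr2 encodes TIM3, a receptor used to mark terminally exhausted CD8 T cells and also found on myeloid cells (chromosome 11, 46454935 to 46481255, plus strand). CD8 T-like cells held 176, 534, 208 and 225 CPM, so that the WT anti-PD1 library was high and the other 3 were close together. Treg-like cells held 214, 219, 141 and 149 CPM and NK-like cells 25.9, 19.1, 68.8 and 38.1 CPM. CD8 T-like and Treg-like cells were not called apart (log2 0.63, SE 0.30, edgeR adjusted p = 0.135), and both were above NK-like cells (log2 2.78 and 2.15, edgeR adjusted p = 3.57e-07 and 1.35e-05). Conventional CD4 T-like cells had 5, 1, 1 and 1 Havcr2 UMIs. Macrophage-like or monocyte-like cells held 171, 38.6, 145 and 142 CPM. In CD8 T-like cells the macrophage marker C1qa was at 3.74, 10.6, 22.5 and 10.6 CPM, Csf1r at 0, 2.79, 5.002 and 1.93 CPM and Adgre1 at 0, 3.90, 0 and 0.967 CPM. Lyz2, another marker of macrophages and monocytes, was at 10.3, 27.3, 22.5 and 14.5 CPM in CD8 T-like cells. Whether RNA carried over from such cells adds to Havcr2 in the CD8 T-like class was not tested.

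Cd244a and Cd160 had another order. Cd244a, a receptor for CD48, was at 201, 267, 190.5 and 193 CPM in NK-like cells and at 36.4, 31.2, 55.0 and 47.4 CPM in CD8 T-like cells (chromosome 1, 171559193 to 171609746, plus strand). Treg-like cells had 2, 4, 2 and 1 UMIs of Cd244a and conventional CD4 T-like cells 0, 0, 1 and 0. NK-like cells were thus the only 1 of the 4 classes above 100 CPM, and CD8 T-like cells were lower by a log2 of -2.44 (SE 0.18, edgeR adjusted p = 1.56e-10). Cd160, which binds HVEM, was at 56.0, 14.5, 40.02 and 52.2 CPM in CD8 T-like cells and at 27.7, 22.8, 23.1 and 23.1 CPM in NK-like cells (chromosome 3, 96798763 to 96829351, minus strand). These classes were not called apart (log2 0.56, SE 0.25, edgeR adjusted p = 0.104). The gamma-delta T-like class held more Cd160, at 90.6, 108, 92.03 and 78.8 CPM. Treg-like cells had 3, 1, 1 and 1 Cd160 UMIs, and conventional CD4 T-like cells had 0, 0, 0 and 1. The fitted folds of Cd160 and Cd244a against conventional CD4 T-like cells therefore rest on 1 UMI each.

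Entpd1 encodes CD39, which breaks down extracellular ATP on the way to adenosine (chromosome 19, 40612366 to 40741602, plus strand). Treg-like cells held 272, 291, 246 and 255 CPM and CD8 T-like cells 155, 213, 278 and 181 CPM, and these classes were not called apart (log2 -0.39, SE 0.18, edgeR adjusted p = 0.116). Conventional CD4 T-like cells held 50.6, 65.5, 47.0 and 113 CPM. Treg-like cells were above them by 2.01 on the log2 scale (SE 0.26, edgeR adjusted p = 2.77e-06). Entpd1 was not confined to lymphoid cells. Macrophage-like or monocyte-like cells held 229 to 263 CPM, and the neutrophil-like cells of WT anti-PD1 held 1556 CPM.

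Tox encodes a nuclear factor of the exhaustion program (chromosome 4, 6686353 to 6991557, minus strand). It was at 627, 773, 860 and 774 CPM in CD8 T-like cells and at 787, 1427, 1007 and 1199 CPM in Treg-like cells. Treg-like cells were the higher of these classes in each library, but the difference was not called (log2 -0.45 for CD8 T-like over Treg-like cells, SE 0.25, edgeR adjusted p = 0.199). Conventional CD4 T-like cells ranged from 187 to 806 CPM and NK-like cells from 79.2 to 378 CPM. CD8 T-like cells were above NK-like cells by 2.06 on the log2 scale (SE 0.26, edgeR adjusted p = 9.26e-07). They were also called above conventional CD4 T-like cells, by a log2 of 0.82. That call was weak: the difference passed in 5 of 14 alternative settings, where its log2 ranged from 0.17 to 1.20.

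The second question was whether the levels within a class differed with the genotype of the tumor cells. A gene was called here when its CPM, with 1 added, was at least 2-fold apart and it reached 20 CPM in 1 of the compared libraries. Between A159V IgG and WT IgG, none of the 9 members passed in CD8 T-like cells, where 6.81% of all genes did and the median member differed by a log2 of 0.24. This count has no test behind it. Entpd1 was the most raised (155 to 278 CPM, log2 0.84, 95% interval 0.49 to 1.18) and Lag3 the most lowered (158 to 103 CPM, log2 -0.62, interval -1.11 to -0.13). All intervals on ratios cover counting error only. Pdcd1 was at 219 CPM in WT IgG and 170 CPM in A159V IgG, an interval of -0.75 to 0.03 that includes 0.

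In Treg-like cells, 1 of 7 members above the minimum passed (11.2% of all genes). Lag3 went from 133 CPM in WT IgG to 50.7 CPM in A159V IgG (81 and 14 UMIs, log2 -1.38, interval -2.18 to -0.57). Pdcd1 differed the other way, from 65.8 to 116 CPM (log2 0.81, interval 0.14 to 1.47). Ctla4 was lower in A159V IgG by a log2 of -0.38 (interval -0.54 to -0.23). The depth of these cells differed, with a median of 2310 UMIs in WT IgG and 1320 in A159V IgG, and its part in the ratios was not tested.

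In NK-like cells, 2 of 8 members passed, against 2.32% of all genes. Havcr2 was at 25.9 CPM in WT IgG and 68.8 CPM in A159V IgG (log2 1.37, interval 0.83 to 1.92), and Tox was at 175 and 79.2 CPM (log2 -1.14, interval -1.43 to -0.85). The Havcr2 ratio was at least 2-fold in 10 of 12 alternatives. It fell to a log2 of 0.0076 when lymphoid cells were clustered at resolution 0.5 and to 0.96 when classes came from a gate on marker UMIs. The NK-like class also drew on its clusters unequally: cluster 7, led by Gzmg, Gzmd and Gzme, had 58 cells in WT IgG and 213 in A159V IgG, while cluster 2, led by Klrb1a and P2ry14, had 135 and 185. Within cluster 7 the Havcr2 ratio was under 2-fold (61.2 and 107 CPM, log2 0.79, interval 0.18 to 1.40), and in cluster 2 Havcr2 had 3 UMIs in each library. The Tox ratio was -0.83 in cluster 7 and -0.46 in cluster 2, both smaller than in the whole class. In conventional CD4 T-like cells, 2 of 6 members passed (29.5% of all genes), Pdcd1 on 3 against 19 UMIs and Lag3 on 3 UMIs against 0, and neither count allows a firm fold.

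**Figure D2:**
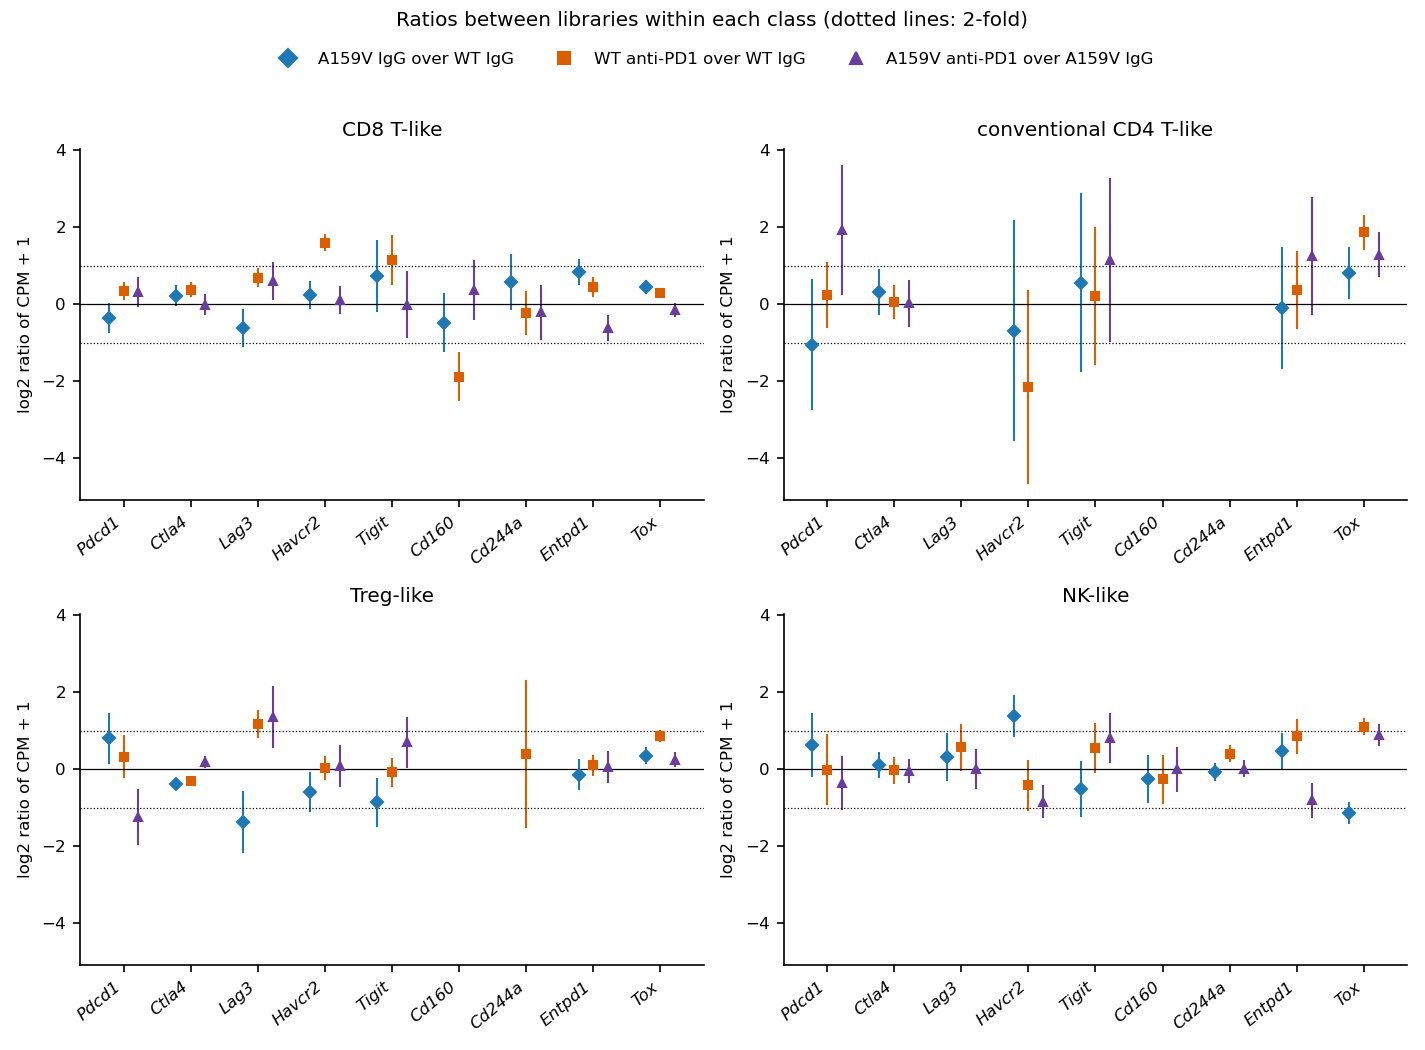
log2 ratios of CPM + 1 between libraries for the 9 genes in 4 classes, with 95% intervals that cover counting error only. Dotted lines mark 2-fold, and genes with 0 UMIs in either library or with at most 3 in both are left out. Among the CD8 T-like values, those of Havcr2 and Cd160 for WT anti-PD1 over WT IgG lie farthest from 0, at 1.60 and -1.88.

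The third question was how the levels differed between anti-PD1 and IgG within each tumor genotype. In WT tumors, 3 of 9 members passed in CD8 T-like cells, where 16.9% of all genes did. Havcr2 was at 176 CPM in WT IgG and at 534 CPM in WT anti-PD1 (188 and 959 UMIs, log2 1.60, interval 1.38 to 1.82). Tigit was at 20.5 and 46.8 CPM (log2 1.15, interval 0.50 to 1.80). Cd160 was at 56.0 and 14.5 CPM (60 and 26 UMIs, log2 -1.88, interval -2.51 to -1.25). The median of all genes in this comparison was itself 0.23 above 0 on the log2 scale, and the ratios of Pdcd1 (0.35), Ctla4 (0.38), Tox (0.30) and Entpd1 (0.45) should be read against that. Lag3, at 158 and 255 CPM, had a log2 ratio of 0.69 (interval 0.44 to 0.94). Over 12 alternatives Havcr2 stayed at least 2-fold higher, with a range of 1.03 to 1.75, while Tigit passed in 6.

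In A159V tumors, none of the 9 members passed in CD8 T-like cells (6.73% of all genes). Havcr2 was at 208 CPM in A159V IgG and 225 CPM in A159V anti-PD1 (log2 0.12, interval -0.24 to 0.48), and Cd160 at 40.02 and 52.2 CPM (log2 0.38, interval -0.41 to 1.16). Lag3 was at 103 and 157 CPM (log2 0.61, interval 0.12 to 1.10), close to its ratio in WT tumors. Entpd1 was the lower after anti-PD1 here (278 and 181 CPM, log2 -0.62, interval -0.95 to -0.28), but this direction held in 9 of 12 alternatives, which ranged from -0.66 to 0.15. The difference between the genotypes in these ratios was not tested, since each rests on 1 library per group.

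The CD8 T-like cells of the libraries came from different clusters, which bears on these ratios. The class held cluster 3, led by Gzmk and interferon-induced genes such as Ifit3, cluster 4, which had Csf1, Gzmk, Cxcr6 and Havcr2 itself among its leading genes, and cluster 8, led by Nrn1, Gldc and Ccl3. The members were not used to cluster, nor were their related lists, except that Eomes and Ikzf2, which serve as class markers, were not left out. Cluster 4 had 7, 460, 0 and 3 cells, so that 97.9% of it was WT anti-PD1. Cluster 3 had 153, 21, 136 and 203 cells and cluster 8 had 128, 42, 63 and 156.

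Within cluster 8, present in all libraries, the levels of Havcr2 were 260, 835, 356 and 356 CPM. WT anti-PD1 was again the highest, with a log2 ratio to WT IgG of 1.68 (interval 1.37 to 1.99). Lag3 in this cluster was at 227, 501, 143 and 234 CPM (log2 1.14 for WT anti-PD1 over WT IgG, interval 0.77 to 1.51). Cd160 was at 67.2, 41.8, 43.9 and 68.4 CPM in cluster 8, where its ratio had an interval that includes 0 (log2 -0.67, -1.73 to 0.39), and at 10.9 CPM in the WT anti-PD1 cells of cluster 4. Within WT anti-PD1, Cd160 was lower in cluster 4 than in cluster 8. In cluster 8 it had 8 UMIs against 45 in WT IgG, too few for a firm fold. The high Havcr2 of WT anti-PD1 was measured in both clusters. For cluster 4, the cluster and the WT anti-PD1 library cannot be told apart.

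Cluster 3 was low in most members. Havcr2 was at 15.6, 82.8 and 20.2 CPM there in WT IgG, A159V IgG and A159V anti-PD1, against 260, 356 and 356 CPM in cluster 8. Pdcd1 was at 70.2, 129 and 172 CPM in cluster 3 and at 304, 219 and 226 CPM in cluster 8. Cd244a was detected in cluster 3 by 1, 2 and 2 UMIs. These are values of clusters from the same cells and carry no test. Within cluster 3, Havcr2 had 18 UMIs in A159V IgG and 6 in WT IgG (log2 2.34, interval 1.07 to 3.60), and within cluster 8 the log2 ratio was 0.46 (interval 0.05 to 0.86). Over the whole CD8 T-like class the log2 ratio was 0.24, with an interval of -0.13 to 0.61 that includes 0. It kept its direction in 6 of 12 alternatives, which ranged from -0.26 to 0.45.

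**Figure D3:**
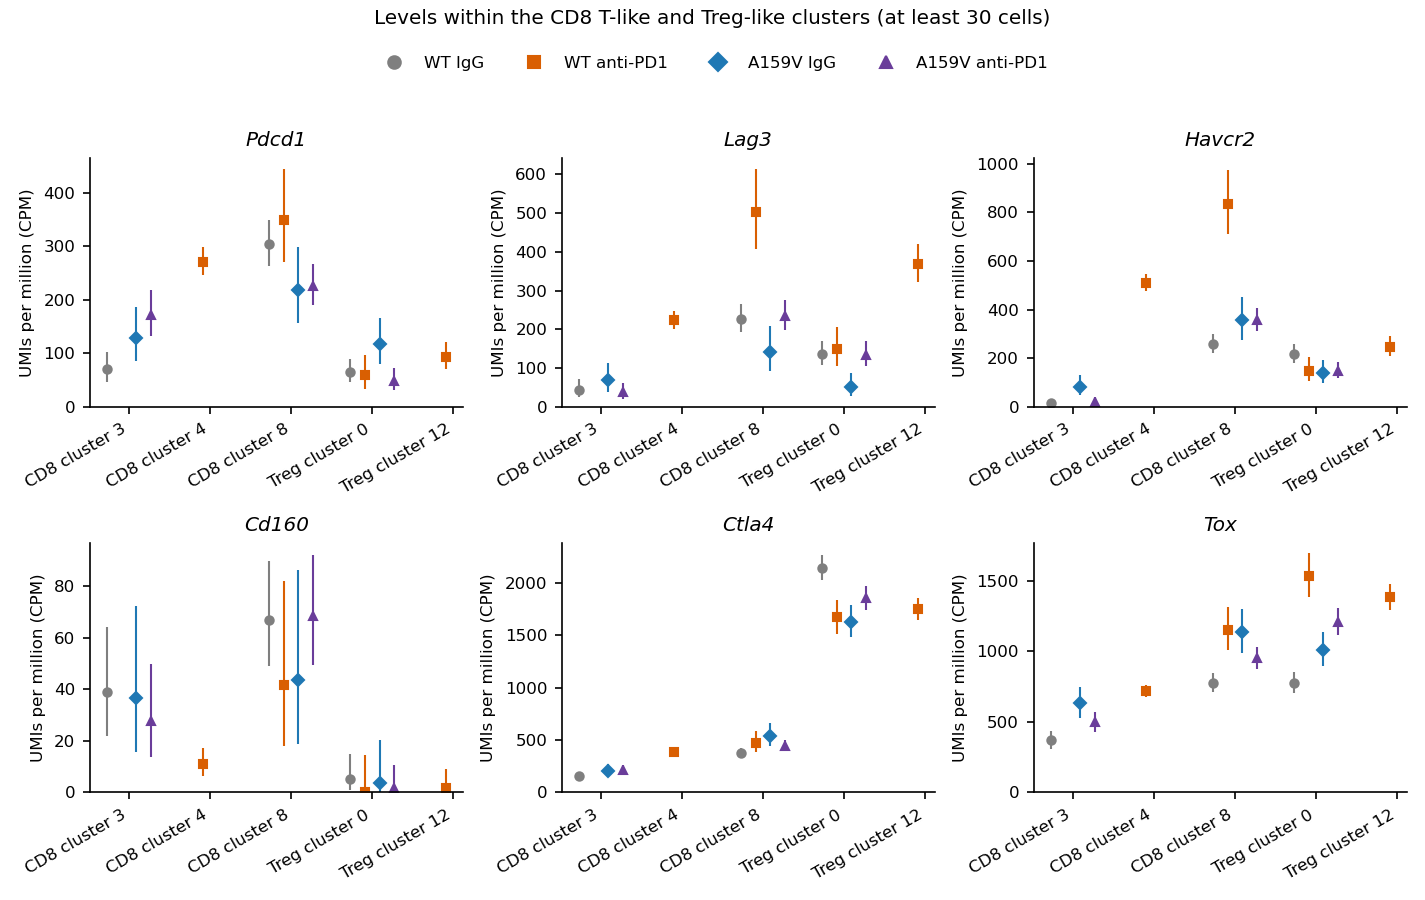
Levels in CPM of 6 members within the CD8 T-like clusters 3, 4 and 8 and the Treg-like clusters 0 and 12, for libraries with at least 30 cells in the cluster, with 95% Poisson intervals. In cluster 8 the WT anti-PD1 library held 835 CPM of Havcr2 against 260 to 356 CPM in the other 3.

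In Treg-like cells of WT tumors, 1 of 7 members passed (17.1% of all genes). Lag3 was at 133 CPM in WT IgG and 304 CPM in WT anti-PD1 (log2 1.18, interval 0.82 to 1.54). Within cluster 0, which all libraries shared, the same comparison gave 138 and 149 CPM (log2 0.12, interval -0.43 to 0.67), and the high value came from cluster 12, which was 92.3% WT anti-PD1 and led by Lrrc32 and Il10, at 369 CPM. Tox was different, being higher also within cluster 0 (775 and 1534 CPM, log2 0.98, interval 0.79 to 1.18). In A159V tumors, 2 of 7 passed (12.1% of all genes): Lag3 was at 50.7 CPM in A159V IgG and 132 CPM in A159V anti-PD1 (log2 1.37, interval 0.55 to 2.18), and Pdcd1 was at 116 and 48.4 CPM (log2 -1.24, interval -1.98 to -0.51). Both were measured almost wholly in cluster 0, where the log2 ratios were 1.36 and -1.25. The A159V IgG profile, with 14 Lag3 and 32 Pdcd1 UMIs, also enters the ratios of these genes between the IgG libraries, so the comparisons are not independent. Its Treg-like cells had a median of 1320 UMIs, against 1979 in A159V anti-PD1, and the part of depth was not tested.

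In NK-like cells, 1 of 8 members passed in WT tumors (21.5% of all genes) and none in A159V tumors (1.89%). Tox was at 175 CPM in WT IgG and 378 CPM in WT anti-PD1 (log2 1.10, interval 0.88 to 1.33), over a median of all genes of 0.34, and with size factors within the class the log2 ratio was 0.79. Of the 458 NK-like cells of WT anti-PD1, 398 were in cluster 5, 92.6% of whose cells were of that library, and which held 428 CPM of Tox, whereas WT IgG had 9 cells there and held 237 CPM in cluster 2 and 66.2 CPM in cluster 7. Cluster and library cannot be told apart for this ratio. In A159V tumors Tox was at 79.2 and 148 CPM (log2 0.89, interval 0.61 to 1.17), and Havcr2 at 68.8 and 38.1 CPM (log2 -0.84, interval -1.26 to -0.42). Cluster 7 went from 213 cells with IgG to 103 with anti-PD1, and the ratios within clusters were smaller: Tox was at 0.26 in cluster 2 and 0.69 in cluster 7, and Havcr2 at -0.48 in cluster 7. In conventional CD4 T-like cells, 1 of 4 members passed in WT tumors (28.8% of all genes) and 5 of 6 in A159V tumors (30.1%). Tox was the one with counts enough to read: 48 and 189 UMIs in WT (187 and 687 CPM, log2 1.87, interval 1.42 to 2.33) and 28 and 135 UMIs in A159V (329 and 806 CPM, log2 1.29, interval 0.70 to 1.88). The other 4 in A159V rested on 2 to 4 UMIs in A159V IgG. The WT anti-PD1 value comes from the class whose Cd8a and Cd8b1 go against its name.

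Counting cells with a UMI in place of UMIs gave a similar picture. Thinning cells to 1500 UMIs kept 251, 438, 119 and 269 CD8 T-like cells. A Havcr2 UMI was found in 16.3%, 44.1%, 23.5% and 20.4% of them (exact binomial 95% intervals 12.0 to 21.5, 39.4 to 48.9, 16.2 to 32.2 and 15.8 to 25.8). Without thinning the shares were 26.7%, 56.8%, 20.6% and 26.0%. In cells that should lack the gene, thinned to the same depth, the share was 0.259% to 0.685% of stromal-like cells (median depth 7892 to 14260 UMIs) and 1.03% to 1.496% of tumor-like cells (29550 to 42350 UMIs, 3 libraries). Pdcd1 was found in 23.9%, 29.2%, 20.2% and 25.6% of CD8 T-like cells and Tox in 43.8%, 43.6%, 52.1% and 50.9%, with intervals that overlap between libraries. Cd160 was found in 8.37%, 2.28%, 5.04% and 7.06%, and only in WT anti-PD1 was the upper limit, 4.16%, under the lower limit of WT IgG, 5.25%. The intervals on shares cover the sampling of cells within a library only. In Treg-like cells a Ctla4 UMI was found in 75.0%, 74.2%, 63.2% and 75.9%. Thinning kept 172, 229, 68 and 166 of the 226, 267, 170 and 235 cells of that class, so the A159V IgG share rests on its deeper cells. Shallower cells were left out, 37, 85, 80 and 93 of the CD8 T-like class, whose median depths were 2992, 3011, 1668 and 2282.5 UMIs.

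The number of members per cell also differed. Of 9 members, a thinned CD8 T-like cell held a mean of 1.68, 2.22, 1.89 and 1.85. Of these cells, 26.3%, 41.8%, 32.8% and 30.5% held 3 or more members (intervals 21.0 to 32.2, 37.1 to 46.6, 24.5 to 42.0 and 25.04 to 36.4). WT anti-PD1 was the highest, and its interval overlapped only that of A159V IgG. The cells of a library are not replicates, so these intervals do not compare the groups. The same count was not made for other genes. Of the 523 CD8 T-like cells of WT anti-PD1, 460 were in cluster 4, so cluster and library cannot be told apart here. In Treg-like cells the mean was 2.39, 2.47, 2.21 and 2.24.

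**Figure D4:**
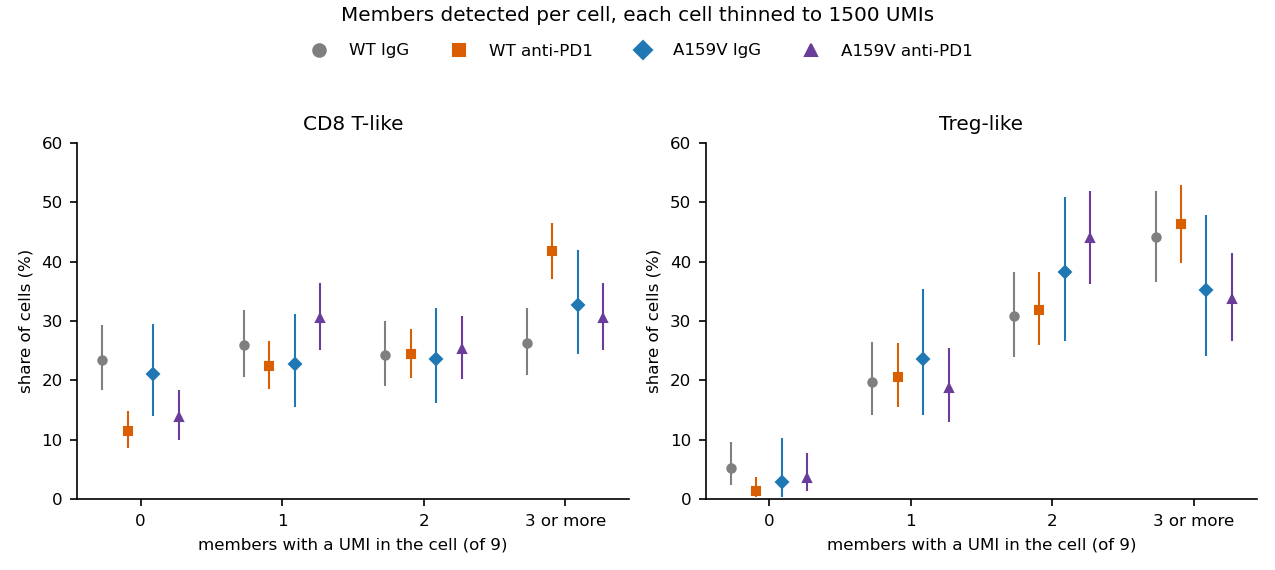
Share of thinned CD8 T-like and Treg-like cells with UMIs of 0, 1, 2 or 3 or more of the 9 members, with exact binomial 95% intervals. The intervals cover the sampling of cells within a library only. In CD8 T-like cells, 41.8% of WT anti-PD1 cells held 3 or more, against 26.3% to 32.8% in the other libraries.

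Members were found in the same cells to different degrees. In WT IgG, 58.5% of CD8 T-like cells with a Havcr2 UMI also had a Ctla4 UMI, against 24.3% of those without (24 of 41 and 51 of 210 cells). The same direction held in WT anti-PD1 (50.3% and 33.9%), A159V IgG (53.6% and 21.98%) and A159V anti-PD1 (45.5% and 25.7%). Lag3 was also more frequent with Havcr2 in all 4 libraries, at 36.6% against 14.3%, 34.2% against 22.9%, 28.6% against 8.79% and 30.9% against 15.9%. Pdcd1 was more frequent with Havcr2 in 3 libraries and not in A159V anti-PD1 (23.6% and 26.2%). Tigit differed by few cells either way, and Cd160 was less frequent with Havcr2 in 3 of 4 libraries, on 1 to 3 cells with both. Cells of 1 library are not replicates, and a cell with more RNA of one gene can hold more of others even after thinning. The class also mixes clusters that differ in these genes. In WT IgG, cluster 3 held 15.6 CPM of Havcr2, 153 of Ctla4 and 44.2 of Lag3, and cluster 8 held 260, 376 and 227 CPM. Co-detection was not computed within a cluster, and the part of this mixture was not tested.

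Genes with a pattern like that of each member were searched over 20 class-by-library profiles among 5896 genes, by Pearson correlation of log2(CPM + 10). Lag3 and Havcr2 were among each other's 3 nearest (r = 0.916), and Cmip was near both (r = 0.889 and 0.920), with Rbpj nearest to Havcr2 (r = 0.932) and Cx3cr1 the third for Lag3 (r = 0.877). Nearest to Pdcd1 were Adamts6, Atxn1 and Nrn1 (r = 0.886, 0.853 and 0.846), to Ctla4 Mif4gd, Mxi1 and Hif1a (r = 0.959, 0.953 and 0.946) and to Tigit Arl5a, Bmp2k and Samsn1 (r = 0.935, 0.933 and 0.923). Cd160 was nearest to Adgrg5, Mcm3 and Bend4 (r = 0.853, 0.850 and 0.843), Cd244a to Lrrk1, Spry2 and Styk1 (r = 0.948, 0.946 and 0.940), Entpd1 to Mxi1, Mdfic and Samsn1 (r = 0.910, 0.891 and 0.890) and Tox to Agfg1, Gtdc1 and Lclat1 (r = 0.938, 0.898 and 0.892). The profiles share libraries and the correlations are descriptions.

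Other genes of the same pathways were examined as lists. Of 9 costimulatory receptors, 8 were tested between CD8 T-like and Treg-like cells, of which 1 was higher and 7 were lower (median log2 -1.63 against 0.03 for all genes, of which 26.6% were called in this pair). The largest difference was Tnfrsf4, which encodes OX40 (log2 -3.68, edgeR adjusted p = 2.83e-10). Of 14 other inhibitory receptors, 11 were tested, 3 were higher and 4 lower (median log2 -0.46). The largest were Klrg1 (log2 -4.74, edgeR adjusted p = 2.46e-12), Klrc1 (log2 4.65, edgeR adjusted p = 2.94e-11) and Cd96 (log2 2.61, edgeR adjusted p = 2.21e-09). Of 15 transcription factors of exhaustion and memory, 13 were tested, 6 were higher and 6 lower. Eomes was higher in CD8 T-like cells (log2 4.22, edgeR adjusted p = 1.31e-06) and Ikzf2, which encodes Helios, lower (log2 -3.46, edgeR adjusted p = 4.69e-10). Ikzf2 was also a marker used to name Treg-like cells, so its direction was set in part by the naming. Eomes was a marker of NK-like cells.

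Between WT anti-PD1 and WT IgG in CD8 T-like cells, 3 of 8 costimulatory receptors were at least 2-fold higher and 3 lower, where 16.9% of all genes were called. Icos was at 227 CPM in WT IgG and 660 CPM in WT anti-PD1 (log2 1.54, interval 1.34 to 1.73), and Tnfrsf4 at 122 and 17.3 CPM (log2 -2.75, interval -3.29 to -2.22), with Tnfrsf9 at 692 and 232 CPM (log2 -1.57). Of 13 tested transcription factors, 4 were higher and 2 lower, Eomes at 16.8 and 62.4 CPM (log2 1.83), Ikzf2 at 755 and 255 CPM (log2 -1.56) and Prdm1 at 44.8 and 126 CPM (log2 1.48). Of 10 ligands of the members and 9 inhibitory signaling genes, 1 each was lower, Nt5e (log2 -1.42) and Ptpn6 (log2 -1.20), no more than the share of all genes. Of 8 other inhibitory receptors, 2 were higher, Cd200r1 (log2 1.89) and Vsir (log2 1.30). In A159V tumors none of the 8 costimulatory receptors and none of the 13 transcription factors passed in this class, where 6.73% of all genes did, so a count of 0 is near the background.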

How the data were processed

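RNA of single cells was read from its 3′ end with 10x Genomics chemistry. The deposited counts are raw UMI counts per gene and barcode from the authors' run of Cell Ranger (7.2.0 in the matrix header, 5.0.1 and mm10 in the submitters' processing notes), introns included, before their removal of background RNA and doublets. Background RNA was not removed here. Barcodes with more than 500 genes were kept, and the highest doublet scores (0.8% per 1000 cells) were removed with a reimplemented Scrublet score. Cells were clustered on 2000 variable genes (20 components, 20 neighbors, Leiden resolution 1, leidenalg 0.10.2), and lymphoid clusters were clustered again. The members and related lists were left out of the variable genes, except Eomes and Ikzf2, which serve as class markers.

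Clusters were named from marker lists. Rules that leave a T cell cluster with Foxp3 in at least 10% of cells unnamed, and pass over the innate lymphoid list where Cd3e and Trac are in at least 25%, were set after seeing the data. The Foxp3 rule left out a cycling cluster (6.38%, 1.33%, 6.45% and 4.65% of lymphoid cells in the order of the report). A cluster led by Il5 and Il13 (1.57%, 6.67%, 1.21% and 2.66%), for which the innate lymphoid list was passed over, was also unnamed. So was a cluster led by Pid1, Htr7 and Slfn4 (2.07%, 0.723%, 3.22% and 2.33%). Both had more leading genes from another marker list than from their own. The members and lists were chosen with earlier results of these data known. All 9 members were named in the levels by class. Passages on ratios between libraries and on shares of cells name only some of them. Co-detection is given without Cd244a, Entpd1 and Tox. From related lists the genes with the largest differences were named, among the top 3 of a list. The 3 most alike genes came from genes with at least 50 CPM in 1 profile.

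Counts were summed per class and library (CPM, exact Poisson 95% intervals). Ratios used log2(CPM + 1) with intervals by the delta method. Class pairs were tested with edgeR 4.0.16 (quasi-likelihood, TMM, library as block, FDR 0.05) in R 4.3.3, with DESeq2 1.42.0 as an alternative. On simulated counts of CD8 T-like over conventional CD4 T-like cells (8222 genes), edgeR recovered 33 of 89 genes changed 2-fold and 106 of 111 changed 4-fold, and called 6 unchanged genes, so 2-fold differences in that comparison were often missed. Groups had 1 library each and were not tested against each other. Alternatives are given in the closing section.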

Additional observations from a re-analysis of the deposited data

Results flagged for a closer look

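Of 36 member and class pairs, 5 had 1 library standing apart from the other 3 by Dixon's criterion, which chance alone flags in about 1 of 20 groups. Havcr2 in CD8 T-like cells of WT anti-PD1 was at 534 CPM, against 225 CPM in the nearest library. Cd244a in NK-like cells of WT anti-PD1 was at 267 CPM, against 201 CPM. Cd160 in NK-like cells of WT IgG was at 27.7 CPM, against 23.1 CPM, a gap smaller than the counting intervals. Cd160 in conventional CD4 T-like cells of A159V anti-PD1 (5.97 CPM) and Cd244a in those of A159V IgG (11.8 CPM) were 1 UMI each, with the other libraries at 0.

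In 3 cases the log2 ratios of anti-PD1 over IgG had opposite signs in WT and A159V tumors, with intervals that exclude 0. Entpd1 in CD8 T-like cells was at 0.45 in WT and -0.62 in A159V tumors, and the A159V value kept its sign in 9 of 12 alternatives. Entpd1 in NK-like cells was at 0.86 and -0.80, and the A159V value was 0.082 at resolution 0.5. Ctla4 in Treg-like cells was at -0.31 and 0.19. With 1 library per group the difference between the genotypes was not tested.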

How the results depend on the processing

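Of 810 recomputed class fold changes, 741 kept their direction and side of the threshold, 24 became weaker, 24 stronger and 21 reversed. Of 90 recomputed counts of members called between classes, 89 stayed within 1.5 times. The exception was Treg-like over conventional CD4 T-like cells under a gate on marker UMIs (1 in place of 6), where 204 of 8928 genes were called. Counts of members at least 2-fold apart between libraries rested on 0 to 5 members and moved in 33 of 138 cases. The cause of each move was not tested, and the share of all genes past the fold was not computed under these alternatives.

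In the counts below, the value in the report comes second. For WT anti-PD1 over WT IgG, conventional CD4 T-like cells gave 2 against 1 with median-of-ratios size factors, with per-cell means, with the gate and with the Il5 and Il13 cluster added. NK-like cells gave 0 with size factors, 0 with per-cell means, 5 with the gate and 2 without cells holding macrophage or stromal UMIs, against 1. Treg-like cells gave 0 against 1 with per-cell means. For A159V IgG over WT IgG, conventional CD4 T-like cells gave 4 with per-cell means and 1 with a pseudocount of 10 CPM, at most 10% mitochondrial UMIs, doublets kept or the Il5 and Il13 cluster added, against 2. NK-like cells gave 1 against 2 with per-cell means, resolution 0.5 and the gate. CD8 T-like cells gave 1 against 0 with more than 1000 genes per cell and resolution 0.5. Treg-like cells gave 2 with the mitochondrial limit, doublets kept and resolution 2, and 3 with the gate, against 1. For A159V anti-PD1 over A159V IgG, CD8 T-like cells gave 1 against 0 with more than 1000 genes, the mitochondrial limit, resolution 2 and the cycling cluster added, and NK-like cells 1 against 0 with more than 1000 genes and resolution 0.5. Conventional CD4 T-like cells gave 3 with doublets kept, 1 with the gate and 2 with the Il5 and Il13 cluster, against 5, and Treg-like cells 1 against 2 with the gate.

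Some ratios under 2-fold also changed sign. In A159V anti-PD1 over its IgG, Entpd1 in CD8 T-like cells (-0.62) was 0.15 with more than 1000 genes, 0.15 with the gate and 0.056 with the cycling cluster, and at resolution 0.5 Havcr2 (-0.84) and Entpd1 (-0.80) in NK-like cells were 0.25 and 0.082. Values past the fold, and class differences, reversed as follows. For conventional CD4 T-like ratios, the gate gave Lag3 -1.63 (between the IgG libraries) and 0.93 (between the A159V libraries), and the Il5 and Il13 cluster gave Pdcd1 0.20 (between the IgG libraries). For CD8 T-like over conventional CD4 T-like cells, Ctla4 was -1.25 and Tigit -0.51 with the gate, and Ctla4 -0.26 with the Il5 and Il13 cluster. Lag3 in CD8 T-like over Treg-like cells was -0.20 with more than 1000 genes and -0.12 with the cycling cluster. For conventional CD4 T-like over NK-like cells, the gate gave Lag3 2.46, Havcr2 1.82 and Tigit 1.44, the Il5 and Il13 cluster gave Lag3 1.07, and Tigit was 0.064 with no library block, 0.25 with the mitochondrial limit, 0.042 with doublets kept, 0.15 at resolution 2 and 0.079 without stray UMIs. For Treg-like over conventional CD4 T-like cells, Cd160 was -0.078 with doublets kept and Pdcd1 0.018 with the mitochondrial limit. Leaving out each library in turn gave -0.017 to 4.42 for Cd160 and -0.46 to 0.27 for Pdcd1 in that pair, and -0.54 to 0.33 for Tigit and -0.22 to 0.56 for Entpd1 in conventional CD4 T-like over NK-like cells.

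With more than 1000 genes per cell, or at resolution 0.5, no conventional CD4 T-like class was found and its values were not computed. Counting the cycling or the Il5 and Il13 cluster was chosen after seeing the data. Between groups, no paired analysis was possible because each has 1 library. The class tests carried library as a block, and leaving the block out changed no count of members called by over 1.5 times. The depth of conventional CD4 T-like cells limits most of their member values to a few UMIs.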

Other observations

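Some members were also measured outside T and NK cells. Cd244a in macrophage-like or monocyte-like cells was at 76.1, 19.0, 85.7 and 91.8 CPM in WT IgG, then WT anti-PD1, then A159V IgG and last A159V anti-PD1, and Havcr2 in dendritic-like cells was at 163, 118, 84.0 and 103 CPM. Both Cd244a and Havcr2 were thus lowest in WT anti-PD1 among macrophage-like or monocyte-like cells, while Entpd1 in that class stayed between 229 and 263 CPM. This class drew on its clusters unequally. A cluster led by Retnla and Mmp12 had 47, 1005, 49 and 142 cells, and a cluster led by Chil3 and Ifitm6 had 1043, 45, 959 and 1277. The part of this make-up in the levels was not tested. Pdcd1 in macrophage-like or monocyte-like cells was at 0.550 to 0.890 CPM.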
